A study of Mus musculus with 4 samples.

Results

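Mouse embryonic stem (ES) cells derived with 2i were set against R1, a line of strain 129, on Illumina MouseWG-6 v2 bead arrays. The 2i-derived cells are 2 samples of strain C57/B6 at passage 5, titled 2i-RFP+ and 2i-RFP-, each measured on 2 arrays that were averaged after normalization. R1 is 1 sample at passage 26 on 1 array and was derived by the standard route. The samples were taken by their array names, which makes 3 of the 4 samples of the study, and the fourth, the C57/B6 line AFF204#21 at passage 11 on 1 array, stays outside the contrast and is given as a side value. The cells of every sample grew on mouse embryonic fibroblast (MEF) feeders, and none was kept in 2i once its line existed.

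2i usually names a medium with an inhibitor of MEK, which lies upstream of ERK, and an inhibitor of GSK3, which restrains WNT signalling. Blocking both holds ES cells in the naive state of the preimplantation epiblast, with high Nanog, Klf and Esrrb, while FGF-ERK signalling moves cells toward the primed epiblast. A few cells in an ES culture pass at any time through a 2-cell-like state, in which genes of the 2-cell embryo such as Zscan4 are switched on. Female ES cells carry a pair of active X chromosomes, and Xist RNA coats the one that is silenced on differentiation.

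Derivation, strain and passage differ together here and cannot be told apart. The levels of X-linked and Y-linked genes differ as well, and sex chromosomes cannot be told apart from the other 3. 2i-RFP+ and 2i-RFP- may be cells of 1 line, since their arrays carry names with a common stem and no label calls them separate derivations. With 2 samples against 1 there are 3 arrangements of the labels, so an exact permutation test cannot go below 0.333, and differences are given as values with no test. A gene is called higher or lower where the 2i-derived mean and R1 differ at least 2-fold, that is by 1 on the log2 scale. All levels are normalized log2 intensities and all differences are 2i-derived minus R1 unless stated. The number of arrays limits the precision, and the array gives no read depth.

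Both 2i-derived samples were close to each other and far from R1. The root mean square difference over 14169 genes was 0.66 log2 units between the 2i-derived mean and R1, against 0.16 between 2i-RFP+ and 2i-RFP-, and 0.22 and 0.19 between the repeat arrays of each. Between repeat arrays 7 and 1 genes differed at least 2-fold, and 5 did between 2i-RFP+ and 2i-RFP-. R1 has no repeat array, and the standard error over its beads, which covers the spot and not the culture, had a median of 0.065 log2 units over the 13665 genes detected in R1. The distance was 0.47 from the 2i-derived mean to AFF204#21 and 0.58 from AFF204#21 to R1, comparisons that share samples with the contrast.

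Of 14169 genes compared, 660 (4.66%) were at least 2-fold higher in the 2i-derived cells and 531 (3.75%) at least 2-fold lower, and the median of all genes was -0.06. Among the 660 genes, 149 were at least 4-fold and 19 at least 16-fold higher, and among the 531 genes, 120 and 16 were lower by as much. R1 gave no signal above background for 157 of the higher genes, and the 2i-derived arrays gave none for 121 of the lower genes. For these a fold is a lower bound, written as at least N-fold. A further 59 lower genes were detected in part on the 2i-derived side, which leaves the size of their difference uncertain. All 4 arrays of the 2i-derived samples lay on the called side of R1 for each of the 1191 genes, which is how 10454 of all 14169 genes lay, called or not. Where a gene had several detected probes, every probe was past 2-fold the same way for 92 of 188 higher genes and 53 of 122 lower genes, and 25 and 14 genes had a probe on the other side of 0.

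**Figure D1:**
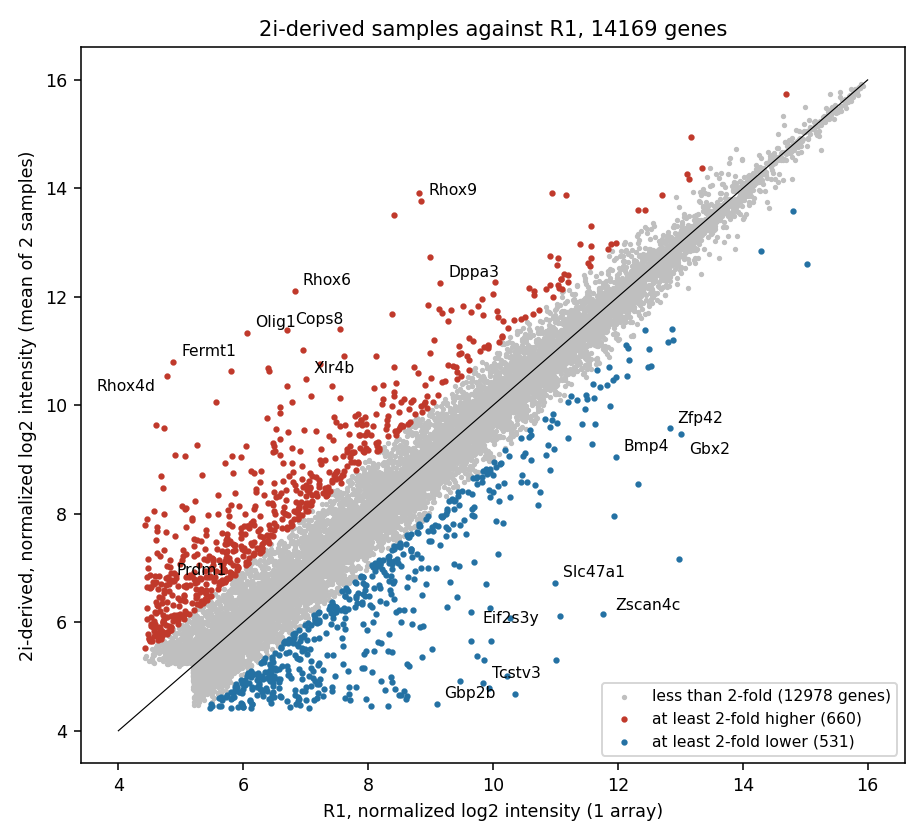
Normalized log2 intensity of 14169 genes in the 2i-derived samples (mean of 2 samples, vertical axis) against R1 (1 array, horizontal axis), with the line of equal levels. The 660 genes at least 2-fold higher (red) and 531 at least 2-fold lower (blue) lie off the diagonal at all levels, with Rhox6, Rhox9 and Olig1 far above it and Zscan4c, Gbx2 and Zfp42 far below.

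The largest difference among genes with a current symbol that were detected on both sides was in a gene of the 2-cell-like state. Zscan4c, a zinc finger protein of the 2-cell embryo that acts in telomere maintenance in ES cells, had 6.28 in 2i-RFP+ and 6.04 in 2i-RFP-, against 11.76 in R1, and stood 48.6-fold lower in the 2i-derived cells. Tcstv3, a gene of the 2-cell stage, had 5.47 and 5.12 in the 2i-derived samples against 9.86 in R1, 23.6-fold lower. It was detected on 3 of the 4 2i-derived arrays and lay near background there, so the size of its difference is uncertain. Both genes were high in R1 and low in the 2i-derived samples, whose arrays did not overlap with R1, as for every called gene. AFF204#21 stood with the 2i-derived samples for Tcstv3, at 5.51. For Zscan4c it had 7.54, between the 2i-derived samples and R1 and nearer to the 2i-derived samples.

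Of 12 measured genes on the 2-cell-like list, 5 were called lower and 1 higher, with 11 below 0 and a median of -0.75, or -0.53 with undetected members at their bound, against -0.06 over all genes. It was -0.31 over members detected on both sides. Among all genes 3.75% were called lower and 4.66% higher. Tmem92, a transmembrane protein gene of this state, was detected on none of the 4 2i-derived arrays (4.78 and 4.71 for the samples) and had 8.58 in R1, at least 10.4-fold lower. Tdpoz4, of a family of BTB and TRAF domain proteins expressed in the early embryo, was at least 3.14-fold lower, with 4.51 and 4.48 in the 2i-derived samples against 6.85 in R1, and its second probe gave -0.65. Tcstv1 had 5.17 and 5.12 against 6.89, a difference of -1.75, and since 2 of the 4 2i-derived arrays detected it the size of its difference is uncertain. Pramel7, which is expressed in the morula and inner cell mass, went the other way with 6.86 and 7.46 against 5.51, 3.13-fold higher. The Zscan4, Tcstv and Tdpoz genes lie in clusters of near-identical copies, so a probe may read several of them. The arrays measure whole cultures, and fewer cells of a type and less RNA per cell cannot be told apart.

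Factors of pluripotency divided into a shared core and a few naive genes with large differences. Pou5f1, which encodes Oct4, had 13.26 and 13.28 in the 2i-derived samples against 13.31 in R1. Nanog had 13.02 and 13.07 against 12.81, and Sox2 had 9.61 and 9.64 against 9.30 with its second probe at -0.32. None of the 10 core factors differed at least 2-fold by the probe that stands for the gene, and their median was 0.02, with the extremes at L1td1 (0.81), an RNA-binding protein of ES cells, and Lin28a (-0.55), which blocks let-7 maturation. The other probes of Lin28a gave -1.61 and -0.01.

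Of 26 measured naive genes, 3 were called lower and 1 higher, against 3.75% and 4.66% of all genes, with a median of -0.22. Gbx2, a homeobox gene downstream of LIF and STAT3 that sustains self-renewal, had 9.45 and 9.49 in the 2i-derived samples against 13.01 in R1, 11.7-fold lower. AFF204#21, at 12.73, stood with R1 for this gene. Zfp42, also called Rex1, a zinc finger marker of naive cells, had 9.48 and 9.67 against 12.83 in R1, 9.55-fold lower, and here AFF204#21 stood with the 2i-derived samples at 9.29.

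Nr5a2, a nuclear receptor that binds regulatory regions of Oct4, was 2.31-fold lower, with 10.42 and 10.36 against 11.60, although another of its 3 probes gave -0.34. Dppa3, also called Stella, a maternal factor that protects DNA methylation in the zygote and marks germ cells, was the member higher in the 2i-derived cells. It had 12.23 and 12.29 against 9.16 in R1, an 8.59-fold difference, with AFF204#21 between them at 10.95. The other 22 members were within 2-fold, among them Klf4 (-0.90), Klf2 (-0.62), Esrrb (-0.36) and Tbx3 (-0.20), and 17 of the 26 lay below 0.

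Genes of the germline and of the primed epiblast held members on the higher side. Prdm1 encodes Blimp1, the repressor that sets primordial germ cell fate. It had 6.77 and 6.74 in the 2i-derived samples, and R1, at 4.81, gave no signal above background, so that it was at least 2.95-fold higher. Its partner Tfap2c was 3.34-fold higher, with 13.24 and 13.39 against 11.57, and all 3 of its probes agreed in direction, at 1.74 to 2.78. Of 15 measured germline genes 4 were called higher and 0 lower, against 4.66% and 3.75% of all genes. The others called were Tdrd12 of the piRNA pathway (1.09) and Nanos3 (1.01), an RNA-binding protein of germ cells that lies just past the threshold. The meiotic and later germ cell genes Ddx4 (0.29), Dazl (-0.04) and Sycp1 (-0.14) were within 2-fold, and the list had a median of 0.39, or 0.15 with no detection filter.

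Of 11 measured genes of the primed epiblast, 4 were called higher and 0 lower, against 4.66% and 3.75% of all genes. Their median was 0.01. Fgf5, a growth factor of the postimplantation epiblast, had 9.04 in 2i-RFP+ and 8.24 in 2i-RFP- against 6.95 in R1, 3.25-fold higher. Pou3f1, a POU factor of primed and neural cells, was 2.76-fold higher, the tight junction gene Cldn6 3.56-fold, and the X-linked kinase gene Pim2 at least 3.60-fold. Otx2 (-0.19), Zic2 (-0.17) and Dnmt3b (0.34), also used to mark this state, were within 2-fold. 2i-RFP+ and 2i-RFP- were less alike for Fgf5 than for the other called members of this list, and both stood above R1.

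**Figure D2:**
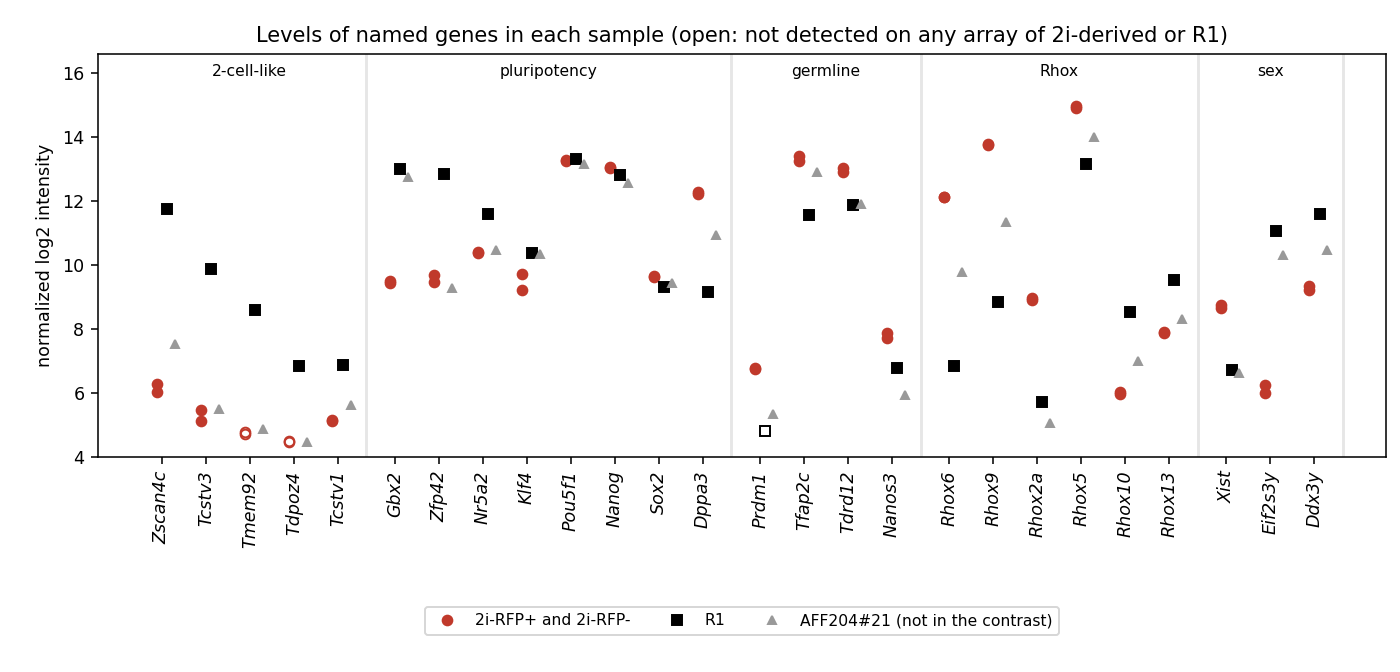
Normalized log2 intensity (vertical axis) of genes of the 2-cell-like state, pluripotency, the germline, the Rhox cluster and the sex chromosomes in 2i-RFP+ and 2i-RFP- (red circles), R1 (black squares) and AFF204#21 (grey triangles). The red pairs nearly coincide, R1 stands apart above them for Zscan4c and Gbx2 and below them for Rhox6 and Dppa3, and all samples meet at Pou5f1.

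Homeobox genes of the X-linked Rhox cluster, which are expressed in the placenta and in reproductive tissues, gave some of the largest values on the higher side. Rhox6 had 12.11 in both 2i-derived samples against 6.83 in R1, 38.9-fold higher, and Rhox9 had 13.78 and 13.75 against 8.84, 30.4-fold higher. R1 was detected but low for both, and AFF204#21 lay between, at 9.79 and 11.33. Of 12 measured Rhox genes 8 were called higher and 2 lower, against 4.66% and 3.75% of all genes. Over the 10 that stand on the Rhox list the median was 1.91, or 1.75 with undetected members at their bound and 0.06 with no detection filter. The further higher ones ran from Rhox5 (1.78), the founding member of the cluster, to Rhox4d, which R1 did not show above background and which was at least 40.9-fold higher. Rhox1, Rhox4b and Rhox4g were not above background in R1 either. These genes and Rhox4d entered through the 2i-derived samples alone, which favours calls on the higher side.

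Rhox10 and Rhox13, genes of germ cells in the testis, stood the other way. Rhox10 had 6.04 and 5.97 against 8.53 in R1, 5.76-fold lower, and Rhox13 had 7.90 and 7.86 against 9.54, 3.15-fold lower. Rhox12 (0.08) and Rhox3a (-0.01) did not differ by as much as 2-fold. A probe of the Rhox2 or Rhox4 genes may read several of their near-identical copies. The Xlr genes are a further X-linked family of lymphocyte and germ cell nuclear proteins with near-identical copies. They were called higher in 4 of 4 measured members, against 4.66% of all genes. Xlr4c was not above background in R1 and entered through the 2i-derived samples alone, which favours a call on the higher side. Xlr4a had 13.85 and 13.97 against 10.95, 7.78-fold higher, and Xlr4b was 11.2-fold higher. AFF204#21 stood closer to the 2i-derived samples than to R1 for both, at 13.19 and 9.64.

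X-linked genes as a class stood higher. Over 404 X-linked genes the median difference was 0.57, with 80.4% above 0 and 19.8% at least 2-fold higher, against -0.07 over 11084 autosomal genes, of which 41.6% lay above 0 and 4.04% were at least 2-fold higher. The X median was 0.65 over the 220 brighter and 0.43 over the 184 dimmer genes. Xist had 8.74 and 8.64 in the 2i-derived samples against 6.73 in R1, 3.90-fold higher, and its 4 probes gave 1.18 to 1.96. Tsix, its antisense partner, was not detected on any 2i-derived array and was at least 2.09-fold lower. Which strand each probe reads was not analysed here.

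Genes of the Y chromosome were low in the 2i-derived cells, with 4 of 4 measured genes called lower and a median of -1.77. Eif2s3y, a translation initiation factor gene needed for spermatogonia, had 6.25 and 6.00 against 11.07 in R1, 30.8-fold lower. Ddx3y, an RNA helicase gene, was lower to a smaller degree, with 9.33 and 9.23 against 11.59, 4.96-fold, and still lay well above background. Uty had 5.19 and 5.44 against 6.46 and was detected on 3 of the 4 2i-derived arrays. Among autosomes, the medians of chromosome 8 (-0.28 over 624 genes, 25.8% above 0) and chromosome 11 (-0.16 over 932 genes, 31.0% above 0) were the lowest. Set against AFF204#21 with the same 2i-derived samples they were -0.03 and -0.33. Named genes on both chromosomes lay on either side of 0. Zfp42 (-3.26) and Nanos3 (1.01) lie on chromosome 8. On chromosome 11, Etv4, Stat3, Cobl and Grb10 are among those below 0, and Osm (2.30), Cldn7 (1.51) and Irf1 (1.16) among those above 0.

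**Figure D3:**
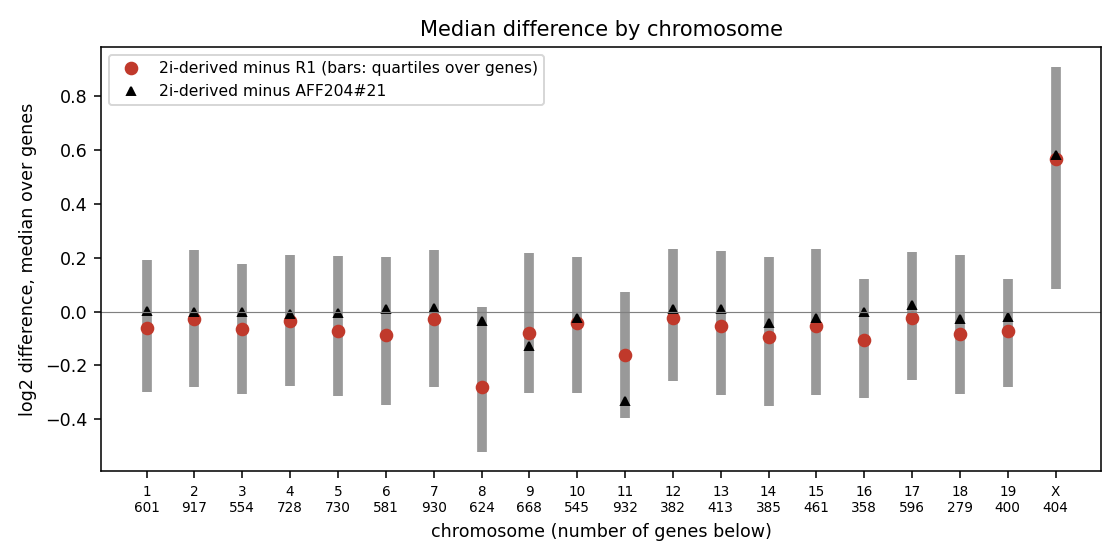
Median log2 difference over the genes of each chromosome (vertical axis; number of genes under each chromosome name) for 2i-derived minus R1 (red circles, with grey bars from the lower to the upper quartile over genes) and for 2i-derived minus AFF204#21 (black triangles), which share the 2i-derived samples. The X chromosome stands at 0.57 against R1, chromosome 8 at -0.28 and chromosome 11 at -0.16, while the other autosomes lie between -0.11 and -0.02.

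Outside these families, genes of unlike roles reached similar sizes. Olig1, a bHLH factor of the oligodendrocyte lineage, had 11.40 and 11.27 against 6.07 in R1, 38.6-fold higher. Cops8, a subunit of the COP9 signalosome, had 11.40 and 11.38 against 6.71, 25.7-fold higher. R1 alone was low for both, since AFF204#21 had 12.12 and 11.53. AFF204#21 and R1 differ in strain and in passage (11 against 26), which cannot be told apart. Whether a sequence difference between the strains lowers the signal of a probe in R1 was not tested for any gene. Rpgrip1, a protein of the photoreceptor cilium, read 34.0-fold higher by one probe and -0.42 by the other, and Prlr, the prolactin receptor, 16.1-fold higher by one probe and 0.13 by the lowest of 4.

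The X-linked gene Efhc2, whose product has EF-hand motifs, was 19.6-fold higher, and Twistnb, a subunit of RNA polymerase I, 18.6-fold, with its second probe at 3.29. Smaller values were those of the bacterial peptidoglycan sensor Nod1 (14.6-fold), the iron exporter Slc40a1 (13.4-fold) and the smoothelin-like gene Smtnl1 (12.7-fold). Among genes not above background in R1, Fermt1, or kindlin-1, which activates integrins in epithelia, had 10.84 and 10.76 against 4.88, at least 48.7-fold higher. Further bounds were at least 21.7-fold for the protease inhibitor gene Serpina3m, 14.9-fold for Lrrc57, 14.7-fold for the apolipoprotein gene Apoa2, 9.66-fold for Rps23rg1, 7.68-fold for Gpat3, an enzyme of glycerolipid synthesis, and 7.54-fold for Gin1, whose second probe gave 0.77.

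On the lower side, Slc47a1, an exporter of organic cations, had 6.71 and 6.74 against 10.99 in R1, 19.3-fold lower, and all 3 of its probes were past 2-fold. Calb2, or calretinin, a calcium-binding protein, had 6.10 and 6.04 against 10.28, 18.5-fold lower, and its second probe gave -3.31. Gbp2b, of the interferon-inducible guanylate-binding proteins, was not detected on any 2i-derived array (4.51 and 4.47) or in AFF204#21 (4.48) and had 9.10 in R1, at least 14.9-fold lower. The levels of these 3 genes in R1 stood clear of every 2i-derived array, which the rule for naming them required.

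Erdr1, a gene of the pseudoautosomal region, was 15.7-fold lower in the 2i-derived cells, with 8.14 and 7.80 against 11.94, and AFF204#21, of the same strain as the 2i-derived samples, was higher still at 13.34. The trypsin inhibitor gene Spink1 was 13.6-fold lower, the cilium gene Tekt1 7.98-fold, the X-linked amino acid transporter gene Slc38a5 7.75-fold and Pnpla3, of lipid droplets, 7.50-fold. Muc3, a mucin gene, was at least 5.65-fold lower, Ceacam20 at least 4.68-fold, the endothelin gene Edn2 at least 3.97-fold, the homeobox gene Nkx6-3 at least 3.50-fold and Teddm3 at least 3.33-fold. Slc38a5 and Nkx6-3 had R1-like levels in AFF204#21 (8.90 against 8.88, and 7.07 against 7.01), while Edn2 and Teddm3 did not.

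Promoters of some genes with large differences, picked after their values were seen from those in the table, are shown because CpG pairs, the sites of DNA methylation in mammals, were fewer at the median in such genes than in genes within 2-fold. Sequences are the 150 bases just before the annotated start from RefSeq (GRCm38.p6), 5′ to 3′ on the strand of the gene, with each CpG in capitals, for 4 genes lower and 2 higher in the 2i-derived cells.
Zscan4c, chr7:11005595-11005744, plus strand: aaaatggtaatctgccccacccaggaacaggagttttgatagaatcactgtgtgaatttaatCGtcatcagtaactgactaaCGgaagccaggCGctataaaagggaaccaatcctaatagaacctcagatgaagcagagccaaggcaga
Gbp2b, chr3:142594697-142594846, plus strand: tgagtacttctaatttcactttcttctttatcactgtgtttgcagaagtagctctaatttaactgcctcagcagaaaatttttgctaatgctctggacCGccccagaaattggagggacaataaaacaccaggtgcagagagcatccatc
Gbx2, chr1:89931177-89931326, minus strand: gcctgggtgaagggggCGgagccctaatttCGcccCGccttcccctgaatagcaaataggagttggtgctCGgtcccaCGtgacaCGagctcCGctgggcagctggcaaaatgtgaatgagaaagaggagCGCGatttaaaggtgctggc
Zfp42, chr8:43307010-43307159, minus strand: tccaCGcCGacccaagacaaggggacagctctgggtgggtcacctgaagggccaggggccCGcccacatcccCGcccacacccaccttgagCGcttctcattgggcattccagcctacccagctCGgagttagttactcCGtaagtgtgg
Fermt1, chr2:132946037-132946186, minus strand: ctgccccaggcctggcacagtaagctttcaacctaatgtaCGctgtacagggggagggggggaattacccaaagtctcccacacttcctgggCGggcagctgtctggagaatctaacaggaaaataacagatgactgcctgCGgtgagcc
Cldn3, chr5:134986064-134986213, plus strand: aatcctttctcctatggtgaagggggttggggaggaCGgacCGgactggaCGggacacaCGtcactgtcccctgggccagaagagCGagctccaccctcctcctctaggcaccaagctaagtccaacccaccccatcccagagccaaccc

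The windows of Zscan4c and Fermt1 hold 3 CpG pairs each and that of Gbp2b holds 1, against 5 for Cldn3, 7 for Zfp42 and 9 for Gbx2. A CpG reads the same on both strands. In the longer stretch of 250 bases, Gbx2 holds 18, and the other promoters shown hold from 1 (Gbp2b) to 9 (Zfp42 and Cldn3). Over the 250 bases before the start, the median was 7 CpG for the 41 genes at least 4-fold lower that have a promoter in the table and 9 for the 95 at least 4-fold higher, against 16 for the 8454 within 2-fold. A promoter with 3 CpG or fewer was found for 39.0% of the at least 4-fold lower genes and 16.8% of the at least 4-fold higher genes, against 9.4% of the 9154 genes compared and 38.1% of all 27025 promoters. The letters TATAAA, searched on both strands, were in 17.1% of the at least 4-fold lower and 6.3% of the at least 4-fold higher promoters, against 7.1% of the genes compared and 13% of all promoters, and the Zscan4c window holds them. A match is a description of the letters, and no methylation was measured.

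Signalling genes were examined by role, from ligands and receptors to targets. Fgfr2, a receptor of FGFs, had 11.97 and 12.13 in the 2i-derived samples against 9.99 in R1, 4.16-fold higher, and its second probe gave 2.29. The ligand Fgf17 went the other way, with 8.29 and 8.52 against 10.75, 5.09-fold lower, and Fgf4, the main FGF of ES cells, was within 2-fold (0.49). Of 16 measured genes of FGF and receptor tyrosine kinases, 2 were called higher and 1 lower, against 4.66% and 3.75% of all genes.

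Among 15 measured feedback and immediate targets of ERK, 3 were called lower and 0 higher, against 3.75% and 4.66% of all genes. Of the 15 genes, 11 lay below 0, and the median was -0.43. The called genes were Spry4, a feedback inhibitor of ERK activation (6.65 and 6.78 against 8.40, 3.22-fold), the immediate early gene Egr1 (11.26 and 11.14 against 12.88, 3.21-fold) and the ETS factor Etv4 (9.24 and 9.29 against 10.88, 3.06-fold). Dusp6 (0.00) and Etv5 (0.04), classical readouts of the same pathway, had R1 between the 2i-derived samples.

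In the LIF pathway, which sustains ES cell self-renewal, the cytokine Osm had 9.02 and 8.84 against 6.63, 4.93-fold higher, and the kinase gene Pim1 was 2.30-fold higher. The transducer Stat3 (-0.91) and its inhibitor Socs3 (-0.77) were within 2-fold and below 0, and Bcl3, a nuclear IkB protein, was 2.03-fold lower. Bmp4, the ligand that drives mesoderm and germ cell fate, had 9.26 and 8.83 against 11.96 in R1, 7.55-fold lower, and its target Id1 had 9.80 and 9.56 against 11.02, 2.54-fold lower. Id2 (1.05) was called on the other side, with its probes at 0.31 to 2.14, and Id3 was within 2-fold (-0.18). AFF204#21 had 10.90 for Bmp4, between the 2i-derived samples and R1.

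Bmp4 also led the markers of primitive streak and mesoderm, whose median was -1.06, or -0.53 with undetected members at their bound and -0.29 with no detection filter. Of 11 measured, 6 were called lower and 0 higher, against 3.75% and 4.66% of all genes. The others were T, or brachyury (6.25 and 5.34 against 7.33), Cdx1 (-1.26), Wnt3a (-1.19), Lhx1 (at least 1.45-fold lower) and Evx1 (-1.06). T, Wnt3a and Lhx1 were detected on 3, 1 and 0 of the 4 2i-derived arrays, so their levels there lie near background. Fgf8 (0.57) and Eomes (0.39), which mark the same stage, were within 2-fold on the other side.

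Markers of other cell types moved unevenly. Their counts stand against 4.66% of all genes called higher and 3.75% called lower. In the trophectoderm list 3 of 11 were called higher, Gata3 (at least 4.40-fold), Krt7 (3.93-fold) and Ascl2 (2.10-fold), and 3 lower, the keratin gene Krt8 (2.83-fold) and the transcription factor genes Cdx2 (2.49-fold) and Tfap2a. Tfap2a (-1.32, second probe -0.50) was detected on 1 of the 4 2i-derived arrays, so the size of its difference is uncertain. In the endoderm list Lama1, a laminin of basement membranes, was 3.64-fold lower and the transcription factor gene Sox7 3.03-fold higher (second probe 0.93). The median was -0.45 over 17 genes, or -0.34 with undetected members at their bound. The neural list had 5 measured genes, a median of -0.18 and Ncam1 (-1.02, second probe 0.15) as its called member. The feeder markers stood slightly lower in the 2i-derived cells. Of 23 measured, 21 lay below 0 and 1, Col3a1 (-1.09), was called, with a median of -0.37 and summed linear levels of 75399.6 and 66183.2 in the 2i-derived samples against 89473.2 in R1. Collagens and laminins are also made by fibroblasts, and the part of the feeder markers in these values was not tested.

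Cell surface genes held a group of claudins, the proteins of tight junctions, on the higher side. Cldn3 had 9.08 and 9.04 against 5.82 in R1, 9.48-fold higher, Cldn4 had 12.65 and 12.79 against 11.05, 3.19-fold, and Cldn7 had 6.73 and 7.23 against 5.47, 2.85-fold. Of 11 measured claudin genes 4 were called higher, the fourth being Cldn6, and 0 lower, against 4.66% and 3.75% of all genes. Both 2i-derived samples stood above R1 for all 4, and AFF204#21 stood above R1 as well. The junction genes Cdh1, or E-cadherin (-0.18), and Tjp1 (-0.19) were within 2-fold, while P-cadherin, Cdh3, was 2.14-fold higher by the lowest of its 3 probes. In the list of basement membrane and adhesion genes as a whole, 5 of 26 were called higher and 1, Lama1, lower, with a median of -0.18.

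Among 31 measured imprinted genes, 4 were called higher and 3 lower, against 4.66% and 3.75% of all genes, around a median of 0.06. Peg3 and Usp29 are neighbours expressed from the paternal allele. Peg3 had 11.49 and 12.01 against 9.32 in R1, 5.39-fold higher, with its second probe at 2.20. Usp29 was at least 3.06-fold higher by one probe, and its other probe gave 0.59. H19 (1.03, second probe 0.91) and Ascl2 (1.07, second probe 1.80), both maternally expressed, were just past the threshold. Lower were Cobl (3.89-fold, second probe -0.37), Phlda2 (3.49-fold) and Grb10 (2.71-fold, second probe -0.24). Phlda2 had 11.30 in 2i-RFP+ and 10.16 in 2i-RFP-, both under 12.53 in R1, whereas Cdkn1c, its neighbour, had 11.78 and 10.41 around 11.76 in R1, so R1 lay within the range of the 2i-derived samples.

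Chromatin genes differed in few members, beside 4.66% of all genes called higher and 3.75% called lower. Phf19, a Polycomb-like protein that recruits PRC2, had 8.23 and 8.46 against 5.59 in R1, 6.74-fold higher. The X-linked gene Rbbp7, a histone-binding subunit, was 2.16-fold higher, and the lowest of its 4 probes gave 0.485. The other 14 of 16 Polycomb genes were within 2-fold and the median was -0.30, or -0.03 with no detection filter. Of 14 genes of DNA methylation, Zfp57, which guards imprints, was called lower (8.42 and 8.68 against 9.74, 2.28-fold). The methyltransferase genes Dnmt1 (0.04), Dnmt3b (0.34) and Dnmt3l (-0.04) were within 2-fold.

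The remaining lists are described by their counts, against 4.66% of all genes called higher and 3.75% lower. Of 23 antioxidant genes, 4 were called higher and 0 lower, led by the glutathione transferase gene Gstm1 (11.74 and 11.69 against 9.64, 4.20-fold), with Mt2 (2.38-fold), Gpx2 (2.30-fold) and Mt1 (2.06-fold). Of 15 p53 targets, the pro-apoptotic gene Pmaip1 was 5.15-fold higher (9.55 and 9.52 against 7.17), and 12 lay above 0 with a median of 0.17. Of 21 interferon and MHC genes, Oasl2 (3.84-fold), H2-T23 (2.89-fold) and Irf1 (2.24-fold) were called higher and Stat2 (2.16-fold) lower.

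Among 17 amino acid and ER stress genes, Ddit4, an inhibitor of mTORC1, was 2.05-fold higher, and among 24 mitotic cell cycle genes the replication clamp gene Pcna was 2.29-fold lower. None of 23 genes of glycolysis and hypoxia differed at least 2-fold, with values between -0.50 and 0.78. Of 11 genes listed as variable between C57BL/6 and 129 mice, 2 were called, Gstm1 higher and Erdr1 lower. Nnt, a mitochondrial transhydrogenase gene that is partly deleted in the C57BL/6J substrain, had 5.18 and 4.86 against 5.30 in R1 and 5.02 in AFF204#21, all near background, so its probe did not separate the strains.

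**Figure D4:**
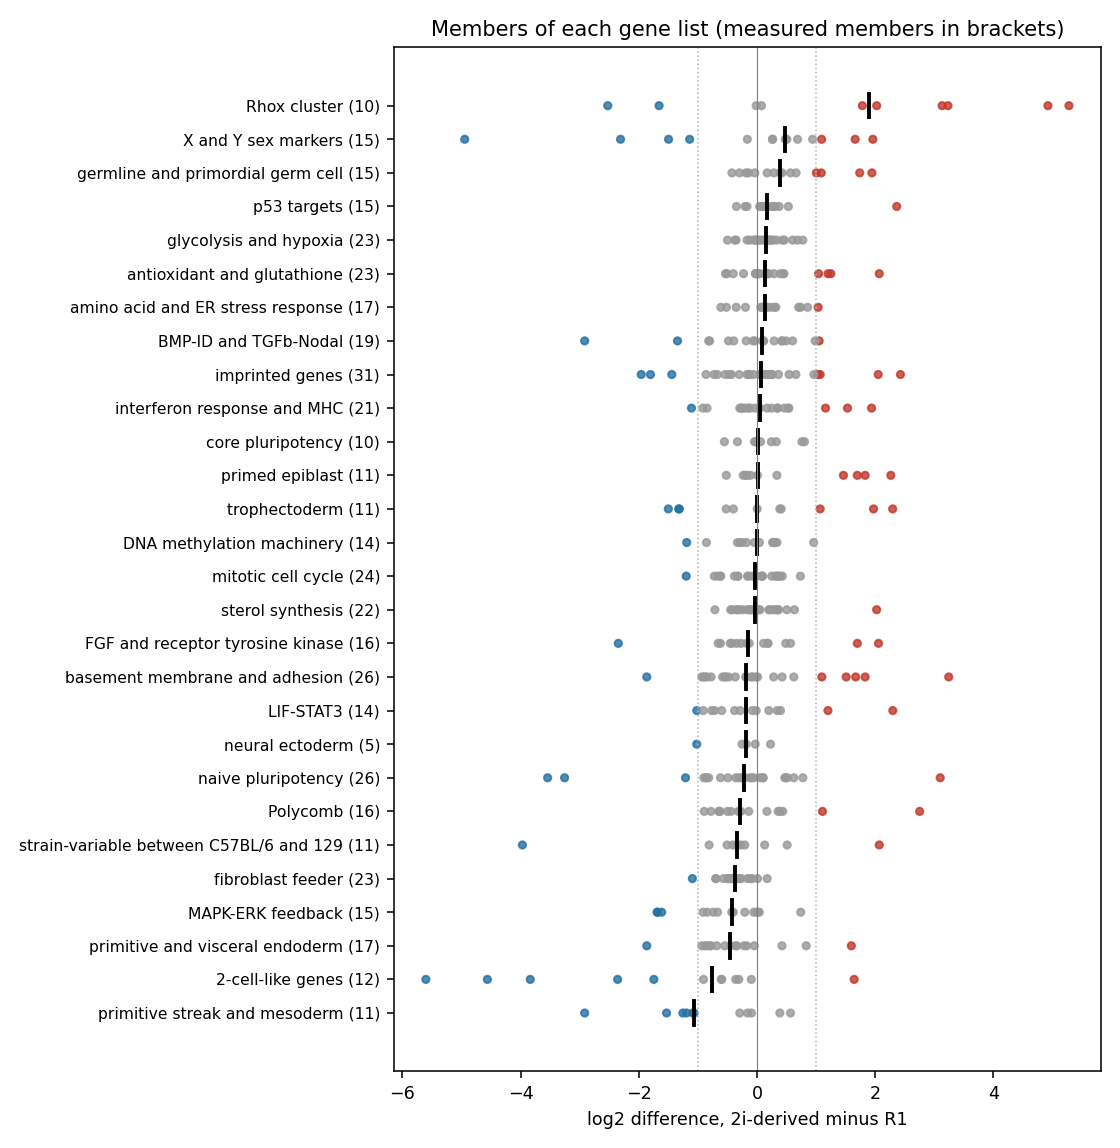
Log2 difference, 2i-derived minus R1 (horizontal axis), of every measured member of 28 gene lists (1 line each, number of measured members in brackets). Red and blue points are at least 2-fold higher and lower, grey points are within 2-fold, and black bars are list medians, from 1.91 for the Rhox cluster to -1.06 for primitive streak and mesoderm.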

How the data were processed

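Per the labels, biotin-labelled total RNA was hybridised to bead arrays of 1 design. Per the file headers, the deposited intensity of each probe and array, with its bead standard deviation and bead number, came from GenomeStudio 1.0.6 without normalization. Detection in the deposited files is a fraction that grows with signal, and its complement served as the detection p. A deposited log2 table was used as an alternative. No source used here states its method, and it equalled quantile-normalized log2 intensity averaged by target and sample (r = 1.0000 in each sample, medians 5.91 to 5.92).

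In limma 3.58.1 under R 4.3.3, neqc corrected the background of all 6 arrays, quantile normalized them and took log2 with an offset of 16. Repeat arrays were averaged. Genes entered where a probe had a mean detection p under 0.05 in R1 or in both 2i-derived samples, and the detected probe with the highest mean stood for its gene. Per array 19143 to 19865 of 45281 probes were detected. For a gene undetected on every array of one side, the bound sets the brighter mean against a floor, which averages over that side's arrays the lowest detected value of the array, or the probe's own value where higher. The calculation of folds was tested on simulated data.

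Of 31490 target names, 13430 matched a current symbol of GRCm38.p6, 8112 were reached through a synonym and 9923 stayed as deposited, and 25 that read as dates or numbers were left out. The build behind the probes is stated in none of the sources. Probe sequences were not at hand, so no probe was checked for sequence differences between the strains. Named genes are the 12 with the largest difference in each direction among genes detected on both sides, the 8 with the largest bound in each direction, up to 5 members and every called member of each of 28 lists, and always Col1a1, Nnt, Pou5f1, Xist, Sox2, Prdm1, Zfp42, Eif2s3y, Nanog, Dppa3, Klf4 and Ddx3y. The largest differences and bounds were taken only among genes whose 2i-derived arrays all lay on the same side of R1. Predicted genes were left out. Further list members, family members and neighbours within 2-fold were named after their values were seen. The samples and lists were chosen with earlier results of these data known. The members of the sterol synthesis list are not reported here.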

Additional observations from a re-analysis of the deposited data

How the results depend on the processing

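The 2-fold counts, 660 genes higher and 531 lower in the 2i-derived cells, changed under several settings. Without background correction 389 genes were higher and 291 lower, and the deposited log2 table gave 366 and 281, and the cause was not tested. Requiring detection on both sides left 351 genes lower. Counting only genes with several detected probes that were all past 2-fold, a choice made after seeing the data, left 92 and 53. A limma fit of 2 samples against 1 (adjusted p under 0.05), whose spread comes from the 2i-derived samples alone, called 2931 genes higher and 3542 lower. The median of X-linked genes, 0.57, stayed above 0 in each alternative. It was 0.47 without background correction, 0.61 with median scaling, 0.40 in the deposited table, 0.09 with no detection filter (737 genes), 0.58 from the first and 0.58 from the second array of each 2i-derived sample, and 0.56 to 0.58 without one or the other 2i-derived sample. No alternative reversed the X-linked median or any of the 115 called genes among the named genes, which alone were followed. Of these 115, 33 fell under 2-fold in the deposited table and 21 without background correction. The sign of the median held throughout for 19 of 28 lists. List medians moved further in size. The Rhox list ran from 0.06 to 1.95, the 2-cell-like list from -0.80 to -0.31, primitive streak and mesoderm from -1.12 to -0.29, endoderm from -0.56 to -0.28, ERK feedback from -0.55 to -0.30, the feeder list from -0.47 to -0.26, the germline list from 0.15 to 0.47 and Polycomb from -0.30 to -0.03. No paired analysis was possible because R1 is 1 sample and shares no replicate pair with the 2i-derived samples. R1 rests on 1 array, so no spread between R1 cultures enters any value.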
